A study of Mus musculus with 8 samples.

Results

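The Fraser complex and the nephronectin-integrin alpha 8 pair are 6 genes chosen by name: Fras1, Frem1, Frem2 and Grip1 for the complex, and Npnt and Itga8 for the ligand and its receptor. A probe was assigned to a gene when the RefSeq accession that the array design gives for it mapped to that gene. This gave 10 probes for 5 of the 6 genes, out of 17115 named genes measured, with 1 probe for Fras1, 2 for Frem2, 1 for Grip1, 3 for Npnt and 3 for Itga8. Frem1 is not analysed here. The probes of a gene are numbered from the brightest, and the brightest one, probe 1, stands for the gene in every comparison across genes.

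Whole kidneys of E13.5 mouse embryos were compared between mutants whose ureteric bud lacks HDAC1 and HDAC2 (UB HDAC1,2-/-) and wild type embryos, both on a mixed CD1 and C57BL/6 background. There were 4 biological replicates, each with 1 mutant and 1 wild type RNA hybridised together on 1 two-colour array and again with exchanged dyes, for 8 arrays on 2 slides. That layout is the one of the sample labels, whereas the design text of the series speaks of exchanged dyes on 2 of 4 arrays, and the labels were followed here. The deletion was limited to the bud, so the RNA also holds that of mesenchyme, stroma and other cells that keep both enzymes, and the Cre driver is not given in the sources used here. In whole kidney RNA, fewer cells of a type and less RNA per cell cannot be told apart.

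The ureteric bud is an epithelial outgrowth that invades the metanephric mesenchyme and branches into the collecting duct system. Fras1 and Frem2 are large proteins made by the bud, and Frem1 is their relative secreted largely by mesenchyme. These proteins stabilise one another in the epithelial basement membrane, and the adaptor Grip1 brings Fras1 and Frem2 to the basal side of the cell. Nephronectin, encoded by Npnt, is a bud matrix protein held in that membrane through the Fraser complex. It binds integrin alpha 8 beta 1, whose alpha chain Itga8 is made by the mesenchyme, and this contact maintains Gdnf, the mesenchymal ligand that draws the bud in. In mice, loss of any of these genes can leave the embryo without kidneys.

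Promoter sequences are shown for the ligand, for its receptor and for Frem2, the gene whose mean ratio lay farthest from 0, because the deleted enzymes act on histones around gene starts. The receptor gene Itga8 is made by the mesenchyme, which keeps both enzymes. The RefSeq table (GRCm38.p6) holds a promoter for 5 of the 6 genes, and Fras1 has no entry in it. Each sequence runs from 250 bases before to 50 bases after the start, 5′ to 3′ on the strand of the gene, with every CG dinucleotide in capitals.
Frem2: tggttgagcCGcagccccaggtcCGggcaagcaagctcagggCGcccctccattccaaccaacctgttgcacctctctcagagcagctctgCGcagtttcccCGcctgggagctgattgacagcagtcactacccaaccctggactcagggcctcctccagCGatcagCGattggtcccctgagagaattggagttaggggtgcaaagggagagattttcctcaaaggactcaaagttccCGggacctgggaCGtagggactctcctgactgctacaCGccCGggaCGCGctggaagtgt
Npnt: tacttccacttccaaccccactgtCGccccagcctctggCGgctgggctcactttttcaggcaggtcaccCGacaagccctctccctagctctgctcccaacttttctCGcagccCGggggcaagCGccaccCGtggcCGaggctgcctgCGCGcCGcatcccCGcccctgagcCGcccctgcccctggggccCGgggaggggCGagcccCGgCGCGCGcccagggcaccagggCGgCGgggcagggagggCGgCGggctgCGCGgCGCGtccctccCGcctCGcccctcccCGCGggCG
Itga8: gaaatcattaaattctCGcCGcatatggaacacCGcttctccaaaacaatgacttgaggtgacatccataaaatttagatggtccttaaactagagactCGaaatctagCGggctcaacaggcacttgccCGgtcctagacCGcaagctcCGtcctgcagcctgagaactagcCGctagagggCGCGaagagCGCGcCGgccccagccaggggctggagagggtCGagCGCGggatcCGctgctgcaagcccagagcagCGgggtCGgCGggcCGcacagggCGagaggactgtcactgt
The Frem2 window (chr3:53657306-53657605, minus strand) holds 13 CG dinucleotides and 60.3% G or C, and 37.9% of the 32851 promoters in the table hold as many CG or more. The Npnt window (chr3:132950242-132950541, minus strand, the upstream of its starts in the table) holds 32 CG and 76.7% G or C, and 9.52% of promoters hold as many. The Itga8 window (chr2:12301895-12302194, minus strand) holds 23 CG and 59.0% G or C, and 21.5% of promoters hold as many. All 3 windows lie above the table's median of 7 CG. The letters GGGCGG, searched on both strands, occur 4 times in the printed Npnt window and 0 times in the other printed windows, and 35.7% of all promoters hold them. The other Npnt window in the table, not printed here, holds 26 CG and 0 matches to GGGCGG, and 16.9% of promoters hold as many CG. TATAAA, searched on both strands, occurs in none of the 3 printed windows and in 13.6% of all promoters. The arrays measured RNA, so no value below was read at these sequences.

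Values are log2 ratios of labelled mutant over labelled wild type, where both names refer to the channel's label, from the log ratio the scanner software gave each spot, averaged over both dye orientations of a replicate. Signals are the software's processed brightness in scanner units, averaged in the same way. All 10 probes were well above background in both channels on 8 of 8 arrays, with 0 saturated and 0 outlying spots. The direction of every ratio follows the dye labels, and it is not settled. In the authors' deposited table, 459 of 496 entries equal the mean scanner ratio with the sign turned, within 0.01 on the log2 scale, and 0 entries equal it as labelled. Should the authors' deposited table hold mutant over wild type ratios, the signs given here would all be opposite. That deposited table, named as a list of genes altered past a p and a fold cut-off, holds 0 of the 6 genes. A gene missing from it may have been measured and not called.

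Hdac2, the deleted gene that could be measured, was not called lower in the labelled mutant. Its log2 ratio was 0.60, 0.60, 0.74 and -0.61 in replicates 1 to 4, with a mean of 0.33 ± 0.63 (SD, n = 4; limma adjusted p = 0.757). An exact two-sided sign-flip permutation test gave p = 0.5, where 4 replicates cannot go below 0.13. Replicates 1 to 3 lay against the label and replicate 4 with it. Without replicate 4 the mean was 0.65 (limma adjusted p = 0.720). Non-bud cells of the kidney contribute Hdac2 RNA too, and their part in these ratios was not tested. For Hdac1, no value is given (not analysed here). Single arrays resembled each other weakly: across probes, the 2 orientations of a replicate correlated at 0.29, 0.58, 0.22 and 0.46 in replicates 1 to 4. Arrays of different replicates in 1 orientation correlated at -0.21 to 0.44 with the labelled mutant in Cy5, and at 0.04 to 0.56 with it in Cy3. Over 39522 probes, limma called 6 higher and 1 lower in the labelled mutant after Benjamini-Hochberg adjustment, and the median log2 ratio was 0.02.

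None of the 10 probes passed the adjusted threshold of 0.05, against 0.0152% of all tested probes called higher and 0.00253% called lower in the labelled mutant. At an unadjusted p under 0.05, 1 of the 10 probes was called, Frem2 probe 1, higher in the labelled mutant, where 3.15% of all tested probes were called higher and 2.86% lower. Of the 10, Frem2 probe 1 was above 0 in 4 of 4 replicates, as were 10.7% of all tested probes, and Itga8 probe 1 was below 0 in 4 of 4, as were 5.63%. Over the 5 genes, each by its brightest probe, the median log2 ratio was -0.04, beside 0.04 over all named genes. Frem2 was the 1 gene of 5 with a mean above 0, where 58.4% of named genes had one. With the direction turned, 4 of the 5 genes would lie above 0, beside 41.6% of named genes.

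**Figure D1:**
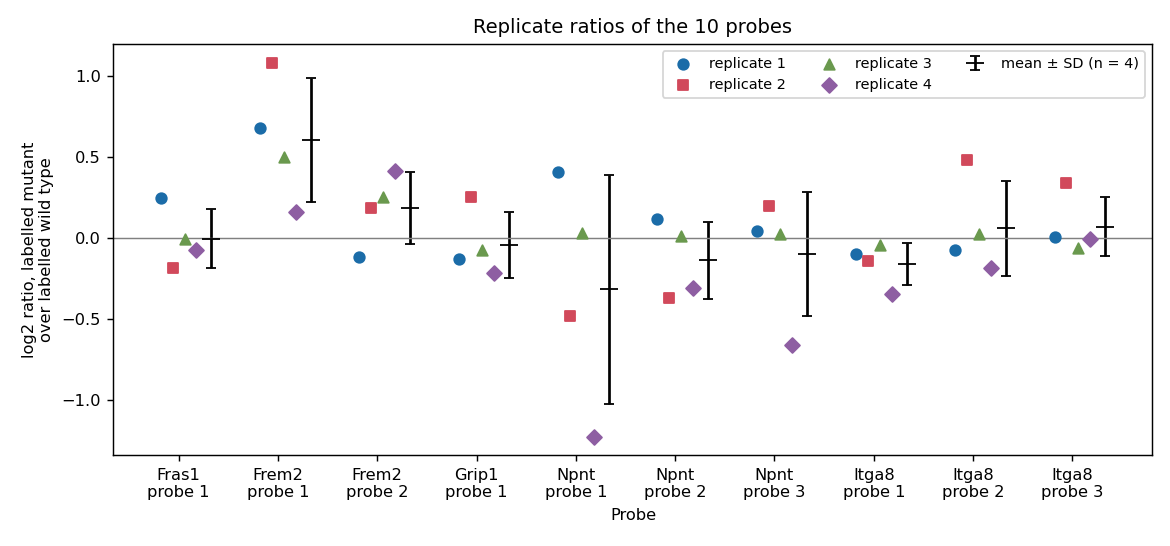
Log2 ratio of the labelled mutant over the labelled wild type (y axis) for each of the 10 probes (x axis), with a point per replicate and a bar at the mean ± SD (n = 4). Frem2 probe 1 and Itga8 probe 1 have all 4 replicates on 1 side of 0, and Npnt probe 1 spreads most widely, from -1.23 to 0.41.

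Frem2, the membrane-anchored partner of Fras1, lay farthest from 0 of the 5 genes on its brightest probe. Frem2 probe 1 had signals of 9191, 5836, 10863 and 4267 in the labelled mutant in replicates 1 to 4, against 5753, 2757, 7677 and 3827 in the labelled wild type. The labelled mutant was brighter within each of the 4 replicates, while the signal ranges of the groups overlapped across replicates. The log2 ratios were 0.68, 1.08, 0.50 and 0.16, with a mean of 0.60 ± 0.38 (SD, n = 4), which is 1.52-fold by the dye labels and 0.658-fold with the direction turned. The unadjusted limma p was 0.00968 and the adjusted p 0.648, so the difference was not called over all probes. The exact sign-flip permutation p was 0.13, the smallest that 4 replicates allow. The log2 ratio of 7 of 8 arrays lay above 0, and the other, replicate 4 with the labelled mutant in Cy5, lay at -0.00.

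The other Frem2 probe gave a smaller ratio and another order of replicates. Frem2 probe 2 had signals of 2777, 2456, 3193 and 1681 in the labelled mutant, against 3019, 2160, 2679 and 1264 in the labelled wild type. Its signals were higher in the labelled mutant in replicates 2 to 4 and lower in replicate 1, and the groups overlapped. The log2 ratios were -0.12, 0.19, 0.25 and 0.41, with a mean of 0.18 ± 0.22 (SD, n = 4; limma adjusted p = 0.757; exact sign-flip permutation p = 0.25). In replicate 1 the arrays of this probe opposed each other, at 0.55 with the labelled mutant in Cy5 and -0.79 with it in Cy3. Replicate 4, the lowest on probe 1, was the highest on probe 2, and in replicate 2 the probes stood 0.90 apart on the log2 scale. The mean of probe 2 was 0.11 when replicate 4 was left out and 0.28 when replicate 1 was. Which transcripts of Frem2 each probe reads was not tested.

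The Frem2 probe 1 ratio also differed between slides and orientations. Within the slide of replicates 1 and 2 its mean log2 ratio was 0.88, and within the slide of replicates 3 and 4 it was 0.33. With slide as a block the limma adjusted p was 0.618. The mean was 0.44 where Cy5 marked the labelled mutant and 0.77 where Cy3 did. Frem2 probe 1 kept a positive mean in both slides and both orientations, and the difference between them was not tested. Without replicate 2, the replicate of highest ratio, the mean was 0.44 (limma adjusted p = 0.454).

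Fras1, the founding protein of the complex, showed no difference beyond the spread between replicates. Its signals were 5352, 3246, 5956 and 2434 in the labelled mutant, against 4514, 3690, 5991 and 2570 in the labelled wild type. Replicate 1 was brighter in the labelled mutant, the other 3 were slightly dimmer in it, and the groups overlapped along most of their range. The log2 ratios were 0.25, -0.18, -0.01 and -0.08, with a mean of -0.01 ± 0.18 (SD, n = 4; limma adjusted p = 0.983; exact sign-flip permutation p = 0.875). The SD of 0.18 was below the median SD of 0.26 over all tested probes.

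Grip1, the adaptor that carries Fras1 and Frem2 to the basal membrane, was likewise near 0. Its signals were 999, 1058, 1245 and 1066 in the labelled mutant, against 1095, 889, 1313 and 1238 in the labelled wild type. Replicate 2 was brighter in the labelled mutant, the other 3 were dimmer in it, and the groups overlapped. The log2 ratios were -0.13, 0.25, -0.08 and -0.22, with a mean of -0.04 ± 0.20 (SD, n = 4; limma adjusted p = 0.882; exact sign-flip permutation p = 0.75). The mean turned with the dyes: it was -0.21 with the labelled mutant in Cy5 and 0.13 with it in Cy3.

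**Figure D2:**
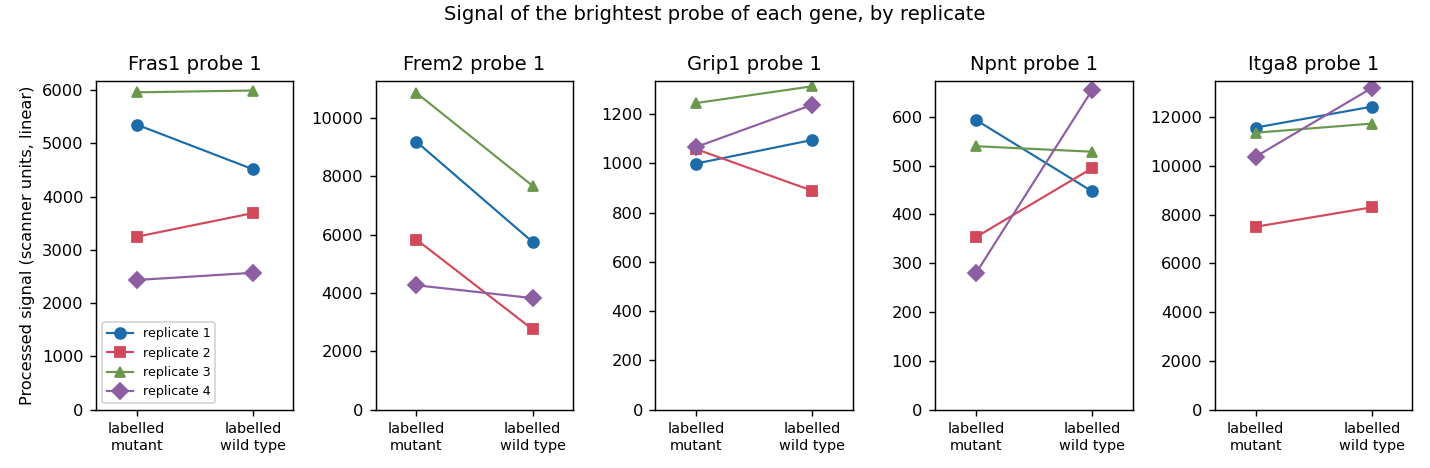
Processed signal in scanner units (y axis, linear, from 0) of the brightest probe of each gene in the labelled mutant (left) and the labelled wild type (right), with a line per replicate. All 4 Frem2 lines and all 4 Itga8 lines run 1 way within their panel, and the Npnt lines cross, replicate 4 having 279 against 655.

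Npnt, the integrin ligand, had the most scattered ratios of the 5 genes. Npnt probe 1 had signals of 594, 353, 540 and 279 in the labelled mutant, against 447, 495, 529 and 655 in the labelled wild type. Replicates 2 and 4 were dimmer in the labelled mutant, replicate 1 was brighter, replicate 3 was nearly equal, and the groups overlapped. The log2 ratios were 0.41, -0.49, 0.03 and -1.23, with a mean of -0.32 ± 0.71 (SD, n = 4; limma adjusted p = 0.757; exact sign-flip permutation p = 0.5). Replicate 4 decided the size of the mean, which was -0.02 without it, and the arrays of that replicate agreed, at -1.40 and -1.05. Without replicate 1 the mean was -0.56. Within slides, the mean was -0.04 for replicates 1 and 2 and -0.60 for replicates 3 and 4.

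The dimmer probes of Npnt had smaller ratios. Npnt probe 2 had signals of 426, 201, 405 and 356 in the labelled mutant, against 393, 260, 402 and 442 in the labelled wild type, and log2 ratios of 0.12, -0.37, 0.01 and -0.31. Its mean was -0.14 ± 0.24 (SD, n = 4; limma adjusted p = 0.757). Without replicate 2 that mean was -0.06, without replicate 4 it was -0.08, and without replicate 1 it was -0.22. The replicate 2 arrays of probe 2 opposed each other, at -1.21 with the labelled mutant in Cy5 and 0.46 with it in Cy3. Npnt probe 3 had signals of 243, 222, 226 and 155 in the labelled mutant, against 236, 194, 223 and 246 in the labelled wild type, and log2 ratios of 0.04, 0.19, 0.02 and -0.66. Its mean was -0.10 ± 0.38 (SD, n = 4; limma adjusted p = 0.806), and 0.09 without replicate 4. Replicate 4 was below 0 on all 3 Npnt probes, replicates 1 and 3 were at or above 0 on all 3, and replicate 2 was below 0 on probes 1 and 2 and above it on probe 3.

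Itga8, the mesenchymal receptor chain, lay slightly below 0 on its brightest probe. Itga8 probe 1 had signals of 11563, 7498, 11353 and 10369 in the labelled mutant, against 12421, 8296, 11727 and 13187 in the labelled wild type. The labelled mutant was dimmer in each of the 4 replicates by little, and the groups overlapped. The log2 ratios were -0.10, -0.15, -0.05 and -0.35, with a mean of -0.16 ± 0.13 (SD, n = 4; limma adjusted p = 0.757). The exact sign-flip permutation p was 0.13, the smallest that 4 replicates allow. Without replicate 4 the mean was -0.10. Centring background-corrected median signals in place of the scanner ratio gave 0.25, the opposite sign.

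The remaining Itga8 probes lay above 0 on average. Itga8 probe 2 had signals of 4837, 4173, 6353 and 5177 in the labelled mutant, against 5097, 2990, 6264 and 5899 in the labelled wild type, and log2 ratios of -0.08, 0.48, 0.02 and -0.19 (mean 0.06 ± 0.29, SD, n = 4; limma adjusted p = 0.865). Itga8 probe 3 had signals of 320, 280, 305 and 309 in the labelled mutant, against 319, 222, 319 and 311 in the labelled wild type, and log2 ratios of 0.01, 0.34, -0.06 and -0.01 (mean 0.07 ± 0.18, SD, n = 4; limma adjusted p = 0.806). Both means rested on replicate 2: without it they were -0.08 on probe 2 and -0.02 on probe 3. Probes 2 and 3 had their highest ratio in that replicate, where probe 1 was at -0.15.

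The dye orientations of a replicate showed how far a single array could be read. The mean gap between orientations was 0.63 on the log2 scale for Frem2 probe 2, 0.62 for Npnt probe 2, 0.43 for Npnt probe 1 and 0.38 for Frem2 probe 1, beside a median of 0.31 over all probes. The smallest gaps were those of Itga8 probe 3 and Fras1, both 0.13. For Npnt probe 2 the mean was -0.45 with the labelled mutant in Cy5 and 0.17 with it in Cy3, so the sign of the mean differed between orientations. In 2 of 4 replicates both orientations of this probe had the same sign. Its widest split was in replicate 2, at -1.21 and 0.46. For Frem2 probe 2 the means were 0.38 and -0.01 in the same order of dyes.

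**Figure D3:**
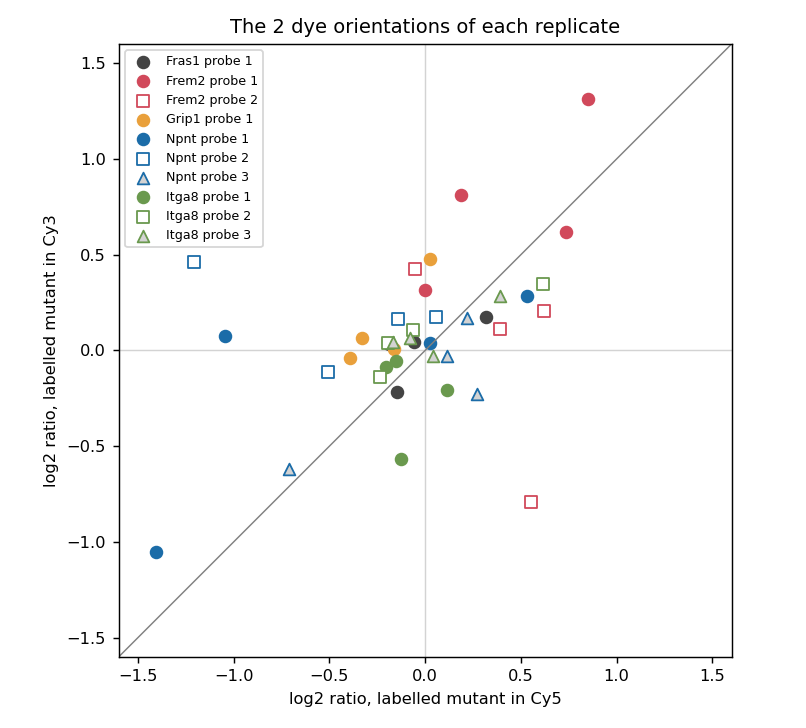
Log2 ratio of each replicate on the array with the labelled mutant in Cy5 (x axis) against its ratio on the array with the labelled mutant in Cy3 (y axis), a point per probe and replicate; the diagonal marks equal ratios. The points farthest from the diagonal are Npnt probe 2 in replicate 2 (-1.21 and 0.46) and Frem2 probe 2 in replicate 1 (0.55 and -0.79).

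Genes of the same pathway were examined in 4 lists, each gene by its brightest probe, and no member of any list passed the adjusted threshold, against 0.0117% of all named genes called higher and 0.00584% called lower. For all named genes, 4.14% were higher and 1.95% lower at an unadjusted limma p under 0.05, 13% were above 0 and 5.57% below 0 in 4 of 4 replicates, and the median log2 ratio was 0.04. The lists' own counts are read beside these shares.

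Among relatives and partners of the Fraser complex, 5 of 7 genes were measured, 4 with a mean above 0 and 1 below, with a median of 0.08. At an unadjusted limma p under 0.05, 0 of 5 were higher and 0 lower, and 0 of 5 had 1 sign in 4 of 4 replicates. Col7a1, the anchoring fibril collagen beneath basement membranes, had a log2 ratio of -0.29 ± 0.31, and Vwa2, a basement membrane protein that binds Fras1 in the mouse, had 0.21 ± 0.28 (SD, n = 4 each). Hmcn1, a matrix protein of the hemicentin family, had 0.24 ± 0.43 and Fbln1, a fibulin of basement membranes, had 0.08 ± 0.21 (SD, n = 4 each). Single replicates moved these means: Hmcn1 was 0.07 without replicate 2, Col7a1 was -0.15 without replicate 3, and Vwa2 was 0.10 without replicate 4. Without replicate 4, Fbln1 was -0.03 and the median of the list was -0.01.

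The list of the beta chain partner of Itga8, other ligands and related integrins had 13 of 14 genes measured, 9 with a mean above 0 and 4 below, with a median of 0.07. At an unadjusted limma p under 0.05, 1 of 13 was higher and 0 lower, and 3 of 13 were above 0 in 4 of 4 replicates. The 1 gene was Itgb6, the epithelial partner of integrin alpha v, with log2 ratios of 0.11, 0.64, 0.23 and 0.31 (mean 0.32 ± 0.23, SD, n = 4; limma adjusted p = 0.757). The probes of Itgb6 ranged from -0.10 to 0.38. Itga6, a laminin receptor chain of epithelia, had a log2 ratio of 0.25 ± 0.29, Itgav, the integrin alpha v chain, had 0.18 ± 0.17, and Spp1, osteopontin, had 0.22 ± 0.27 (SD, n = 4 each). Without replicate 2, Itga6 was 0.12 and Spp1 was 0.09, and without replicate 4 Itgav was 0.11.

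The Gdnf axis, which the integrin alpha 8 contact maintains, had 14 of 15 genes measured, 6 with a mean above 0 and 8 below, with a median of -0.03. At an unadjusted limma p under 0.05, 0 of 14 were higher and 0 lower, and 1 of 14 was above 0 in 4 of 4 replicates. That gene was Gdnf itself, with log2 ratios of 0.21, 0.08, 0.25 and 0.25 (mean 0.20 ± 0.08, SD, n = 4; limma adjusted p = 0.757). Eya1, a transcription cofactor upstream of Gdnf, had -0.24 ± 0.26, and Osr1, an early transcription factor of the mesenchyme, had -0.18 ± 0.20 (SD, n = 4 each). Grem1, the BMP antagonist needed for bud outgrowth, had 0.24 ± 0.36 (SD, n = 4), of which replicate 2 gave 0.77, and was 0.07 without it. Eya1 was -0.14 without replicate 4, and Osr1 was -0.11 without replicate 1. Normexp background correction with median centring of each array turned the median of this list to 0.05.

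Other basement membrane genes had 18 of 20 measured, 10 with a mean above 0 and 8 below, with a median of 0.07. At an unadjusted limma p under 0.05, 2 of 18 were higher and 0 lower, and 3 of 18 were above 0 in 4 of 4 replicates. Col18a1, the collagen that releases endostatin, had a log2 ratio of 0.27 ± 0.09 (SD, n = 4; limma adjusted p = 0.757), and Col4a1, a chain of the collagen IV network, had 0.33 ± 0.26 (SD, n = 4; limma adjusted p = 0.757). Lama1, a laminin chain of embryonic basement membranes, had 0.31 ± 0.37 (SD, n = 4). Replicate 2 was the highest for Lama1, at 0.86, as it was for Frem2 probe 1. Without replicate 2, Lama1 was 0.13, Col4a1 was 0.20 and the median of the list was -0.02.

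Markers of the cells that make the proteins were set beside them. Bud epithelium markers, which mark the source of Fras1, Frem2 and Npnt, had 9 of 11 genes above 0 and a median log2 ratio of 0.42, with 8 of 11 higher at an unadjusted limma p under 0.05 and 8 of 11 above 0 in 4 of 4 replicates. Their summed signal ran from 58605 to 112342 in the labelled mutant, against 42244 to 62699 in the labelled wild type, and was higher in the labelled mutant in 4 of 4 replicates. Krt18 and Krt8, keratins of simple epithelia, had log2 ratios of 1.14 ± 0.20 (limma adjusted p = 0.0984) and 0.96 ± 0.13 (limma adjusted p = 0.109; SD, n = 4 each). Calb1, a calcium-binding protein of the bud, had 0.78 ± 0.20 and Epcam, an epithelial adhesion molecule, 0.66 ± 0.11 (SD, n = 4 each; limma adjusted p = 0.194 for both). A fit of single arrays with a replicate block enters both arrays of a replicate, which share their RNAs, as separate values. Its limma adjusted p was 0.00123 for Krt18, 0.00193 for Krt8, 0.00482 for Calb1 and 0.0104 for Epcam. That fit called these markers higher in the labelled mutant, where the fit of 4 replicates called none of them. Ret, the receptor of Gdnf, and Wnt9b, a Wnt ligand of the bud, had means below 0, at -0.05 ± 0.28 and -0.13 ± 0.74 (SD, n = 4 each). Replicate 2 alone lay below 0 in both, at -0.46 for Ret and -1.21 for Wnt9b. The list's median by replicate was 0.33, 0.55, 0.46 and 0.53, beside 0.68, 1.08, 0.50 and 0.16 for Frem2 probe 1. The part of the bud markers in the Frem2 ratio was not tested.

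Cap mesenchyme markers, which mark cells around the bud tips in the tissue that makes Itga8, had 2 of 8 genes above 0 and a median of -0.05, with 1 of 8 higher and 0 lower at an unadjusted limma p under 0.05. Eya1, Osr1 and Six2 stand on both this list and that of the Gdnf axis, and Ret stands on the Gdnf axis list and among the bud markers. The 8 cap mesenchyme markers had a summed signal of 36272 to 62545 in the labelled mutant, against 34502 to 67569 in the labelled wild type. It was higher in the labelled mutant in 1 of 4 replicates. The list's median by replicate was -0.12, 0.06, -0.10 and -0.11, beside -0.10, -0.15, -0.05 and -0.35 for Itga8 probe 1, and its part in the Itga8 ratio was not tested. The median was -0.29 for 6 macrophage markers, -0.12 for 5 erythroid, -0.11 for 4 skeletal muscle, -0.10 for 7 stroma, -0.03 for 4 neuron and glia, 0.04 for 4 adrenal and gonad and 0.06 for 5 endothelium markers. At an unadjusted limma p under 0.05, 2 of 7 stroma and 1 of 4 neuron and glia markers were lower and 0 higher. By that measure 1 of 5 endothelium and 1 of 4 adrenal and gonad markers were higher and 0 lower. For erythroid and skeletal muscle markers 0 were called. Over all named genes, 4.14% were higher and 1.95% lower. Macrophage marker signal summed to between 2846 and 3703 in the labelled mutant, against 3506 to 4236 in the labelled wild type, and was lower in the labelled mutant in 4 of 4 replicates. Of these 6 macrophage markers, 3 were lower and 1 was higher at an unadjusted limma p under 0.05, to be read beside the same shares. The lower ones were C1qa at -0.37, Tyrobp at -0.28 and Csf1r at -0.38. The probes of Csf1r ranged from -0.38 to 0.05. The higher one was Ptprc, the pan-leukocyte CD45, at 0.53 ± 0.40 (SD, n = 4) on its brightest probe, with probes from -0.67 to 0.53. Normexp with median centring turned the sign of 6 marker list medians, to 0.16 for cap mesenchyme, 0.22 for stroma, 0.20 for erythroid, 0.16 for skeletal muscle, 0.02 for neuron and glia and -0.06 for adrenal and gonad markers. Without replicate 4 the median was 0.02 for stroma and 0.04 for erythroid markers, and without replicate 3 it was -0.00 for adrenal and gonad markers. No marker of any of the 9 lists was below background on all arrays.

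**Figure D4:**
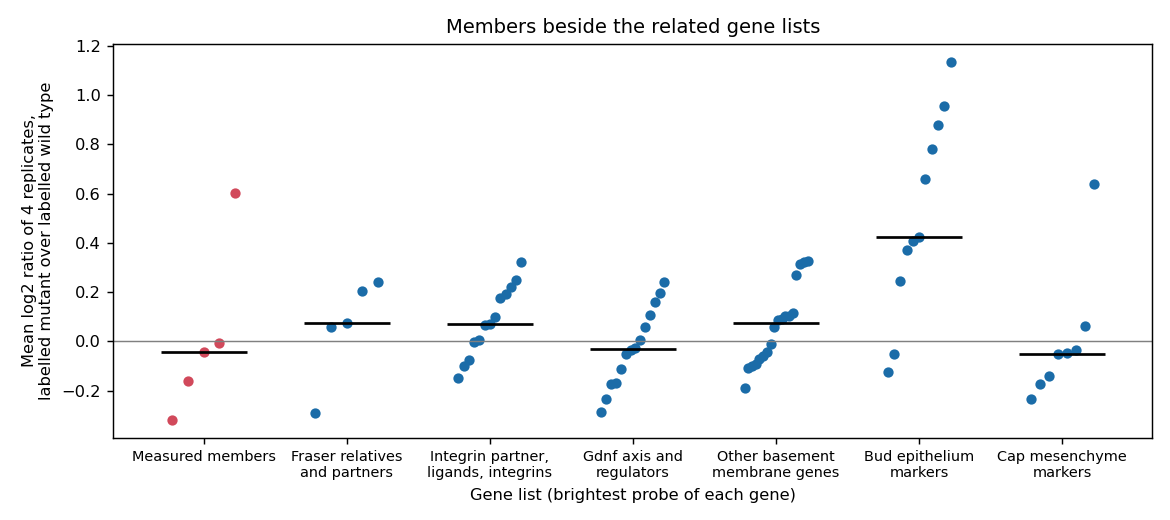
Mean log2 ratio of 4 replicates, labelled mutant over labelled wild type (y axis), for the 5 measured genes, the 4 pathway lists and the bud and cap mesenchyme markers (x axis), with a point per gene at its brightest probe and a line at the median. Frem2 at 0.60 lies farther from 0 than every pathway list gene, and the bud markers have a median of 0.42. Some markers lie farther from 0 than Frem2, among them Krt18 of the bud at 1.14 and Dapl1 of the cap mesenchyme at 0.64.

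The genes whose ratios most resembled each gene over the 8 arrays were chosen by Pearson's r among 17049 named genes with a value on every array. They were Arhgap23 (0.995) and Hoxb3 (0.982) for Frem2, and Spred1 (0.979) and Cyth1 (0.953) for Fras1. For Grip1 they were Tnfrsf19 (0.977) and Gemin6 (0.973). For Npnt they were Trp53 (0.984) and Cdk5rap1 (0.982), and for Itga8 Dcun1d2 (0.976) and Pdcd2l (0.976). The 8 arrays are 4 pairs that share RNA, and each r is the highest of many, so these values are a description. None of the 10 most similar genes was on a pathway or marker list.

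Processing moved the 10 probes unequally. Over 20 alternative settings Frem2 probe 1 stayed above 0, between 0.33 and 0.88, with an unadjusted p under 0.05 in 18 of them and adjusted p from 0.101 to 0.999. Npnt probe 1 stayed below 0, between -0.60 and -0.02, in the same 20. The mean of each other probe took both signs. Under the alternative that averages the probes of a gene, the value is the gene's mean. Of the 195 values under an alternative, 0 passed the adjusted threshold.

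**Figure D5:**
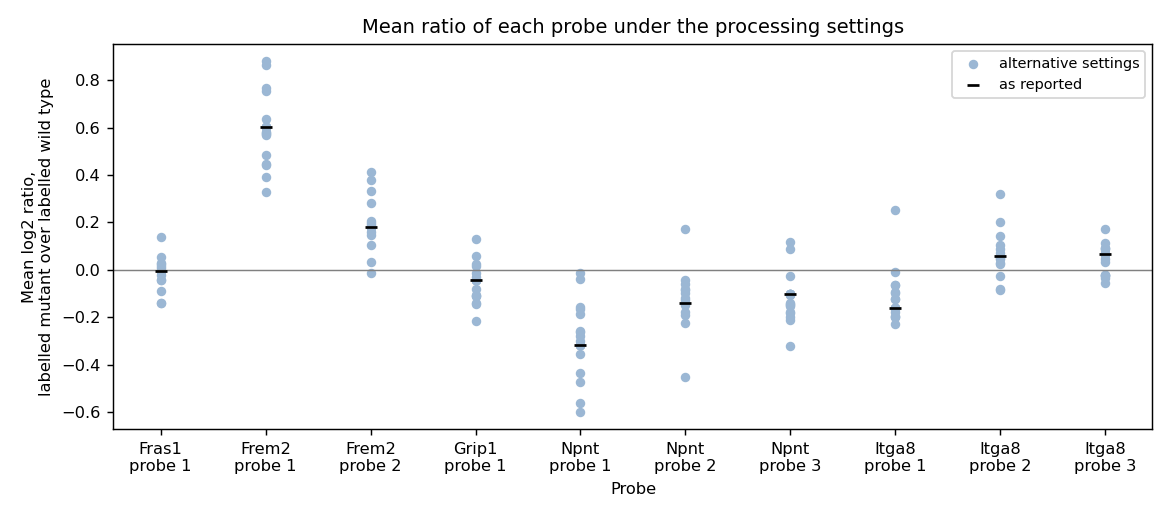
Mean log2 ratio of each of the 10 probes (x axis), labelled mutant over labelled wild type (y axis), as reported (black line) and under each alternative setting (blue points). Frem2 probe 1 stays above 0 and Npnt probe 1 below 0 in all 20 alternatives, and the other 8 probes have points on both sides.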

How the data were processed

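RNA of 4 mutant and 4 wild type kidney samples was measured on 8 two-colour arrays. Per the file headers, the authors' spots were read out by Feature Extraction 10.5.1.1 on a design built on mm9. The deposited log10 ratio sets the processed red signal (Cy5) over the green (Cy3), and the deposited intensity columns hold processed signals, background-subtracted and dye-normalized by the software, and median brightness with no normalization. The deposited flags are 0 or 1. The authors' deposited table gives 1 log2 ratio per entry and states no direction, and it was used only to check direction.

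The scanner log ratio was turned to labelled mutant over labelled wild type and converted to log2. Outlier spots were left out and spots of a probe averaged. Both arrays of a replicate were averaged, so n = 4. The 39522 of 41174 probes that cleared the background flag in 1 channel or both on 4 or more arrays were tested, of which 24783 had a symbol by accession in the RefSeq table of GRCm38.p6. That build differs from the design's, so no gene positions are given, and promoter sequences and their positions come from RefSeq. Depth here is signal above background: 81.8% to 95.8% of probes per array in the labelled mutant and 78.9% to 97.0% in the labelled wild type. Both lowest shares came from 1 array, replicate 2 with the labelled mutant in Cy5. The array weights of 1 alternative gave replicate 2 the lowest weight, 0.18, beside 1.23 to 3.43 for the other replicates. The number of arrays limits the precision.

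Ratios were tested against 0 with limma 3.58.1 (lmFit and eBayes, R 4.3.3), two-sided, with Benjamini-Hochberg adjustment over all tested probes. The procedure was tested on simulated data. Single probes also had an exact sign-flip permutation test. Named are every probe of the 6 genes, Hdac1 and Hdac2, up to 4 genes of smallest p from each of 4 pathway lists, and the 2 genes most similar to each member. A gene that this rule names is not reported here. The bud markers named were chosen after their values were seen. The genes and lists were chosen with earlier results of these data known. The RNAs hybridised together deviated together, with correlations of 0.572 to 0.780 across probes, and each labelled mutant RNA matched its own partner best in 4 of 4 replicates. Partners share arrays, so this shows pairing by hybridisation alone, and the ratio keeps it. Alternatives covered normalization, centring, the filter, outlier spots, the probe summary, replicate block, weights, slide, dye orientation, the test and each replicate left out.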

Additional observations from a re-analysis of the deposited data

Results flagged for a closer look

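Among 30 sets of 4 replicate values (ratios and signals of the 10 probes), 1 value stood far from the other 3. Itga8 probe 3 had a signal of 222 in the labelled wild type in replicate 2, against 319, 319 and 311 in the other replicates. The gap to the nearest value was 0.93 of the whole range, above the 95% critical value of Dixon's test for 4 values. Chance alone marks about 1 in 20 such sets. The same replicate had 280 in the labelled mutant, the lowest of that group, beside 305 to 320.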

How the results depend on the processing

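Of the 195 values of the 10 probes under 20 alternatives (3 of them means over the probes of a gene), 171 kept their sign, 24 turned and 0 passed the adjusted threshold (lowest adjusted p = 0.101, limma). The count of the 5 genes past the adjusted threshold was 0 in all 20 alternatives, and at an unadjusted p under 0.05 it was 1, but 0 with the labelled mutant in Cy5 alone and 0 with the plain one-sample statistic. The 420 values of list genes and Hdac2 kept their sign in 414, and 15 passed, all of them Krt18, Krt8, Calb1 or Epcam. The cause of each change was not tested, and in some settings fewer replicates or arrays entered.

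Probes past the adjusted threshold numbered 6 higher and 1 lower, and at an unadjusted p under 0.05 there were 1243 higher and 1132 lower. Normexp with loess gave 1 higher and 0 lower at an offset of 50, and 1 higher and 0 lower at 16. Normexp with median centring gave 14 higher, 3 lower and 3817 unadjusted. No filter gave 1 higher, and requiring both channels above background on all 8 arrays gave 12 higher. The mean of all probes of a gene gave 17 higher, 6 lower and 1151 unadjusted over fewer features. The replicate block over 8 arrays gave 96 higher and 37 lower, and with it Frem2 probe 1 had a limma adjusted p of 0.237, so the block changed no call of the 10 probes, while it called these 4 bud markers. Array weights gave 179 higher, 112 lower and 6201 unadjusted, and slide as a block gave 0 higher. Slide 1 alone gave 0 higher, 0 lower and 750 unadjusted, and slide 2 alone gave 104 higher, 348 lower and 4665 unadjusted. Cy5 alone gave 0 higher, and Cy3 alone 28 higher, 8 lower and 6086 unadjusted. The plain statistic gave 0 higher and 0 lower. Leaving out a replicate gave 0 to 9 higher, 0 to 1 lower and 905 to 3127 unadjusted, the lowest without replicate 3.

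Means that turned sign were these. Normexp with median centring gave Fras1 0.14, Grip1 0.023, Itga8 probe 1 0.25, Itga8 probe 3 -0.057 and Eya1 0.22. Normexp with loess gave Itga8 probe 3 -0.021 at an offset of 50 and -0.022 at 16. Array weights gave Fras1 0.026, Itga8 probe 2 -0.028 and Itga8 probe 3 -0.025. Slide 1 alone gave Fras1 0.030, Grip1 0.060, Npnt probe 3 0.12 and Fbln1 -0.015. Slide 2 alone gave Itga8 probe 2 -0.084, Itga8 probe 3 -0.035 and Hmcn1 -0.068. Cy3 alone gave Fras1 0.0088, Frem2 probe 2 -0.013, Grip1 0.13, Npnt probe 2 0.17, Vwa2 -0.0011 and Hmcn1 -0.091. Leaving out each replicate gave Fras1 -0.090 to 0.053, Grip1 -0.14 to 0.014, Npnt probe 3 -0.20 to 0.086, Itga8 probe 2 -0.081 to 0.14, Itga8 probe 3 -0.022 to 0.11 and Fbln1 -0.031 to 0.12. Medians of lists also turned: normexp with median centring gave the Gdnf axis 0.045, cap mesenchyme 0.16, stroma 0.22, erythroid 0.20, skeletal muscle 0.16, neurons and glia 0.021 and adrenal and gonad -0.064. Others took the opposite sign within slide 1, within slide 2, by array weights, in 1 dye orientation, with array medians subtracted, by the mean of probes or without replicate 2, 3 or 4. The bud epithelium, endothelium, macrophage and integrin lists kept their sign in all 20.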
